A study of Drosophila melanogaster with 12 samples.

Results

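Wing imaginal discs of Drosophila melanogaster in which RNAi against ecd was driven together with RNAi against Xrp1 were compared with discs in which ecd RNAi was driven alone. The comparison uses 8 of the 12 samples of the study, 4 with ecd plus Xrp1 RNAi and 4 with ecd RNAi, and asks, in a study of the response to spliceosome failure, which transcripts of ecd RNAi discs differ when Xrp1 is also targeted. A further 4 control samples give the level of each transcript without RNAi and entered no test. Wing discs are larval epithelia from which the wing and dorsal thorax of the adult arise. Each sample pooled the discs of third-instar larvae, 150 per sample, collected 7 days after egg laying at 25 °C, and the 4 samples of a group are called biological replicates in the labels.

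All 3 groups carried the driver nub-Gal4 and the red fluorescent reporter mRFP. The first group additionally carried RNAi transgenes against ecd and against Xrp1, the second an RNAi transgene against ecd, and the control neither. The driver is active in the domain of nubbin, which covers the wing pouch and part of the hinge, so the discs also contained tissue in which no RNAi was driven. Samples with Xrp1 RNAi alone were not analysed here, so the loss of Xrp1 and the presence of a second RNAi transgene under the same driver cannot be told apart. As each library mixes pouch, hinge, notum and attached cells, fewer cells of a type and less RNA per cell cannot be told apart either.

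Xrp1 is a transcription factor of the bZIP class that works as a dimer with Irbp18, and it is known in discs for its induction by damage, by mutations in ribosomal protein genes and in the losers of cell competition. The product of ecd (ecdysoneless) binds Prp8, the protein at the heart of the spliceosome. Injured or stressed discs signal through the JNK kinase cascade, secrete cytokines of the Unpaired family that activate JAK/STAT signalling, and release the relaxin-like peptide Ilp8, which delays the steroid pulse that starts metamorphosis. Glutathione S-transferases, DNA repair factors and the p53 transcription factor belong to the cell's own response to oxidative and genotoxic damage.

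Total RNA depleted of ribosomal RNA was sequenced. Expression is given as normalized counts, which the authors scaled to be comparable between libraries, and these summed to 29.1 to 32.3 M in ecd plus Xrp1 RNAi libraries, 32.4 to 35.4 M in ecd RNAi libraries and 26.5 to 29.0 M in controls. A change is a log2 fold change ± SE of ecd plus Xrp1 RNAi over ecd RNAi on the log2(normalized count + 1) scale, and a gene rose or fell where its adjusted p from limma, taken over all 10179 genes with a mean of at least 10, was under 0.05. The pouch marker nub, a POU-domain factor, stood at 12048 ± 794, 10678 ± 1843 and 13182 ± 862 normalized counts in ecd plus Xrp1 RNAi, ecd RNAi and control discs (SD, n = 4 each) and did not pass between the RNAi groups (log2 fold change 0.19 ± 0.12, adjusted p = 0.237). Fat body RNA stood apart in 2 of the ecd RNAi libraries. The summed share of 12 fat body markers was 206 to 224 per M of gene signal with ecd plus Xrp1 RNAi and 184 to 1012 per M with ecd RNAi, where replicates 3 and 4 were highest, against 195 to 3032 per M in controls.

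The targeted genes were examined first. Xrp1 (FBgn0261113, chromosome 3R, 18914968 to 18926989, in genome build BDGP6) had 4447, 4474, 5365 and 6048 normalized counts in the ecd plus Xrp1 RNAi libraries, 22964, 20019, 21561 and 18985 in ecd RNAi libraries and 4709.5, 4511, 4949 and 5078 in controls. The RNAi groups did not overlap, and the double RNAi libraries overlapped control. Xrp1 fell by 2.05 ± 0.11 on the log2 scale (adjusted p = 5.83e-07), a 4.13-fold lower level. Its dimer partner Irbp18 (FBgn0036126, chromosome 3L, 11097446 to 11098186) was at 243, 252, 197 and 224 with ecd plus Xrp1 RNAi, at 862, 752, 706 and 788 with ecd RNAi, with 200.1, 214, 192 and 176 in controls, again without overlap of the RNAi groups (log2 fold change -1.76 ± 0.10, adjusted p = 1.01e-06).

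The ecd transcript itself (FBgn0000543, chromosome 3L, 2263581 to 2265857) was at 1825, 1766, 1696 and 1699 normalized counts with ecd plus Xrp1 RNAi, at 1982, 1687, 1423 and 1521 with ecd RNAi, with 1654, 1494, 1421 and 1420.3 in controls. The RNAi groups overlapped (log2 fold change 0.09 ± 0.10, adjusted p = 0.479), and neither lay below control. The label of ecd RNAi is therefore not checked by its own transcript, and the libraries are named by their labels throughout. Prp8, the partner of the ecd product, was at 14108 ± 1128, 11396 ± 1145 and 12379 ± 431 in ecd plus Xrp1 RNAi, ecd RNAi and control discs (SD, n = 4 each). It rose by 0.31 ± 0.09 with Xrp1 RNAi added (adjusted p = 0.0188) but did not pass without ecd RNAi replicates 3 and 4, where adjusted p was 0.0934.

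Of 10179 genes tested, 4456 changed (43.8%), of which 2445 rose (24.0%) and 2011 fell (19.8%). The values of the RNAi groups did not overlap for 4447 genes (43.7%). Large changes were mostly falls. At least 2-fold changes were seen for 1181 genes (11.6%), with 334 higher (3.28%) and 847 lower (8.32%). Under quantile normalization, which forces the same distribution on every library, the 2-fold changes split into 508 higher and 598 lower. Without ecd RNAi replicates 3 and 4, the libraries richest in fat body RNA, 3719 genes changed, 1874 higher and 1845 lower. Of 12296 genes with an adjusted p in the authors' deposited table, 5189 passed 0.05, 2731 higher and 2458 lower with Xrp1 RNAi added.

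**Figure D1:**
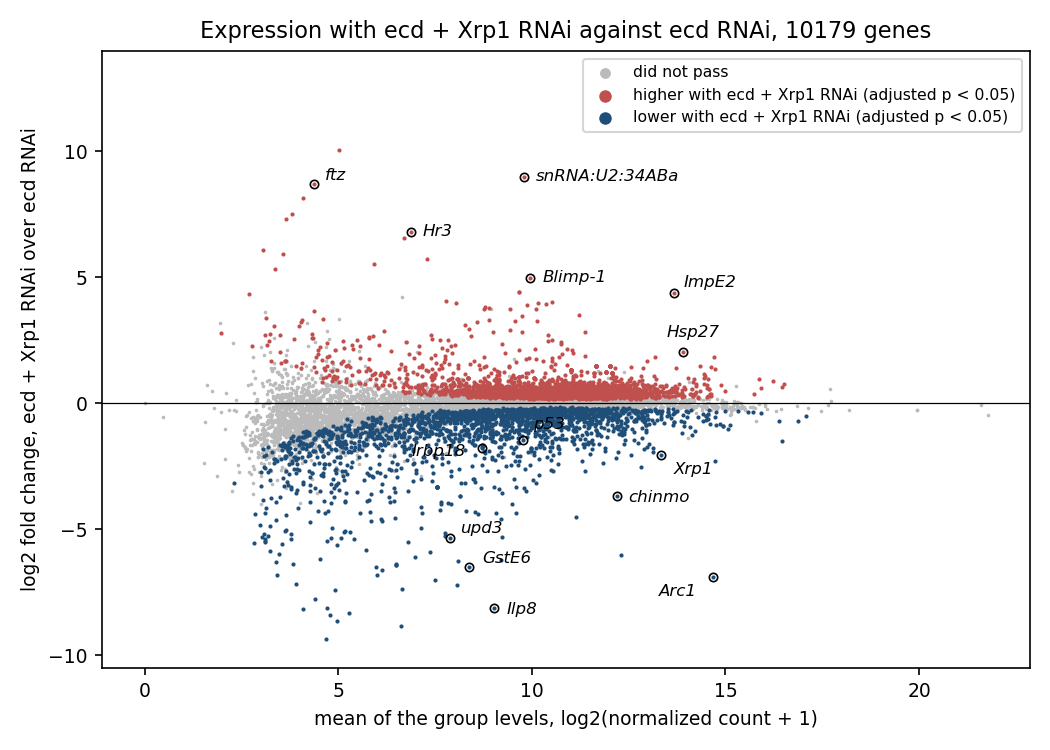
Log2 fold change of ecd plus Xrp1 RNAi over ecd RNAi (vertical axis) against the mean level of the 2 groups in log2 normalized counts + 1 (horizontal axis) for 10179 genes, with genes past an adjusted p of 0.05 in red where higher and in blue where lower with ecd plus Xrp1 RNAi. Falls of at least 2-fold outnumber rises, 847 against 334, and the circled genes include Arc1 and Ilp8 below 0 and snRNA:U2:34ABa, ftz, Hr3, Blimp-1 and ImpE2 above it.

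Steep falls were seen in transcripts that stood high in ecd RNAi discs and far lower in both other groups. Arc1, a capsid-forming relative of retrotransposon Gag known from neurons, was at 2519, 2229, 2001 and 2968 normalized counts with ecd plus Xrp1 RNAi, at 284300.4, 313215, 256998 and 292238 with ecd RNAi, with 1425, 1575, 1459 and 2109 in controls. It fell by 6.89 ± 0.13 on the log2 scale (adjusted p = 1.71e-09). The uncharacterised gene CG8620 was at 2.93, 4.84, 3.09 and 3.59 with ecd plus Xrp1 RNAi, at 2966, 1769.9, 1939 and 1811 with ecd RNAi, with 2.02, 0.977, 2.13 and 2.58 in controls, a log2 fold change of -8.83 ± 0.21 (adjusted p = 3.65e-09). Neither gene's RNAi groups overlapped.

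Besides CG8620, the 10 largest falls by log2 fold change hold Ilp8, described with the signals below, and 8 genes near 0 in ecd plus Xrp1 RNAi libraries. Tsf3, a member of the transferrin family, was at 0 in 3 ecd plus Xrp1 RNAi libraries and at 3.07 in the other, and at 549, 515, 638 and 548 with ecd RNAi. ZnT35C, a zinc transporter, had at most 0.975 in an ecd plus Xrp1 RNAi library, against 242, 252, 407 and 338 with ecd RNAi, and beat-Ic, a cell-surface protein of the immunoglobulin class, had at most 2.46, against 319.5, 355, 427 and 394. Their log2 fold changes were -8.63, -7.79 and -7.40, with adjusted p of 5.94e-07, 3.20e-07 and 6.97e-07. The transcripts orion, which encodes a chemokine-like signal for engulfing glia, and shop were listed at 0 in all 4 ecd plus Xrp1 RNAi libraries, so no fold is given. With ecd RNAi, orion had 802, 607, 514 and 765 and shop 283, 331, 236 and 291. In controls orion was listed at 0 throughout, while shop had 117, 40.2, 0 and 36.0. Both overlap a gene on the opposite strand, Ubr3 for orion and htk for shop. CG13579, CR10102 and lncRNA:CR44316 completed this set, with means of 0.544 ± 0.634, 1.71 ± 3.42 and 0.544 ± 0.635 with ecd plus Xrp1 RNAi against 445 ± 233, 549.8 ± 131 and 489 ± 82.8 with ecd RNAi (SD, n = 4 each).

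Signals that damaged discs send fell as a group, where 19.8% of all genes tested fell and 24.0% rose. Of 13 secreted signals and their receptors tested, 10 fell and none rose, with a median log2 fold change of -1.12 where the median of all genes was -0.01. Ilp8 (FBgn0036690, chromosome 3L, 17029812 to 17032080), the peptide that delays pupariation, was at 32.2, 17.9, 46 and 27.6 normalized counts with ecd plus Xrp1 RNAi, at 8789.7, 9432, 7548 and 7966 with ecd RNAi, with 12.9, 25.5, 52.2 and 52.3 in controls. The double RNAi values fell within the control range and none approached an ecd RNAi value, a log2 fold change of -8.12 ± 0.23 (adjusted p = 9.32e-09). The cytokine gene upd3 was at 39, 29.3, 41.8 and 34.8 with ecd plus Xrp1 RNAi, at 1523, 1549, 1404 and 1445 with ecd RNAi, with 14.9, 27.5, 24.7 and 26.6 in controls (log2 fold change -5.33 ± 0.12, adjusted p = 3.35e-09). Its double RNAi values, though far below ecd RNAi, were all above control.

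The companion cytokine upd2 was at 35.8 ± 21.5, 1266 ± 361 and 17.3 ± 7.85 in ecd plus Xrp1 RNAi, ecd RNAi and control discs, and upd1 was at 128 ± 22.7, 1299 ± 123 and 116 ± 20.6 in the same order (SD, n = 4 each). Their log2 fold changes were -5.25 ± 0.37 and -3.34 ± 0.13 (adjusted p = 3.69e-06 and 7.77e-08). The TNF ligand egr, the Toll ligand spz and the PDGF/VEGF-like ligand Pvf2 also fell, with log2 fold changes of -1.12 ± 0.17, -2.66 ± 0.26 and -1.21 ± 0.12 (adjusted p = 4.80e-04, 3.96e-05 and 3.48e-05). For egr, spz and Pvf2 every ecd plus Xrp1 RNAi library was below every ecd RNAi library. Among the members that did not pass were the ligands Pvf1 and Pvf3, both with a log2 fold change of -0.06, and Ilp6, an insulin-like peptide, with 0.50.

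Among 23 genes of the JNK cascade and its targets, 12 fell and 5 rose, where 19.8% of all genes tested fell and 24.0% rose. The genes that fell were mostly targets and ligands. The lists share members, so their counts are not separate results. The lowest value of the JNK list, -8.12, is that of Ilp8, and of the JAK/STAT list, -5.33, that of upd3. Ets21C, an ETS factor induced by JNK, was at 57.2, 49.3, 119 and 321 normalized counts with ecd plus Xrp1 RNAi, at 2421, 2079, 1925 and 1999 with ecd RNAi, with 16.8, 31.7, 31.8 and 31.5 in controls (log2 fold change -4.35 ± 0.49, adjusted p = 8.97e-05). Its double RNAi values spread over a wide range and all exceeded control. Mmp1, a matrix metalloprotease, was at 1226, 1225, 1442 and 2129 with ecd plus Xrp1 RNAi, at 4171, 3901, 3587 and 3899 with ecd RNAi, with 1059, 1312, 1136 and 1107 in controls (log2 fold change -1.41 ± 0.16, adjusted p = 9.28e-05). As for Ets21C, replicate 4 of the double RNAi was highest, and the RNAi groups did not overlap.

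The JNK phosphatase puc, a common reporter of JNK activity, moved less. It was at 1689.6, 2092, 2323 and 2762 normalized counts with ecd plus Xrp1 RNAi, at 3239.6, 2956, 2409 and 2920.3 with ecd RNAi, with 1226, 1632, 1293 and 1470.1 in controls. The RNAi groups overlapped and the double RNAi libraries were all above control. The fall of puc by 0.39 ± 0.14 on the log2 scale was at the threshold (adjusted p = 0.0496) and did not pass without ecd RNAi replicate 1, 2 or 4, without ecd plus Xrp1 RNAi replicate 1, 2 or 3, without both ecd RNAi replicates 3 and 4, with a pseudocount of 0.5 or with no filter on low values, with adjusted p of up to 0.118. The Fos gene kay fell by 0.71 ± 0.14 (adjusted p = 0.00257), to 3941 ± 681 with ecd plus Xrp1 RNAi against 6453 ± 1167 with ecd RNAi (SD, n = 4 each). The 5 members that rose include bsk, the JNK kinase itself, with a log2 fold change of 0.42, the TNF receptor wgn with 0.89 ± 0.08 and the metalloprotease inhibitor Timp with 0.83 ± 0.12 (adjusted p = 0.00748, 2.80e-05 and 3.30e-04).

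Genes of the JAK/STAT pathway fell as well, where 19.8% of all genes tested fell and 24.0% rose. Of 12 tested, 8 fell and 1 rose, the SUMO ligase gene Su(var)2-10, whose call was lost without ecd RNAi replicate 3 or 4 or without ecd plus Xrp1 RNAi replicate 3 or 4. Socs36E, the feedback inhibitor and target of the pathway, was at 2868, 2834, 3064 and 3174 normalized counts with ecd plus Xrp1 RNAi, at 13350.1, 12414, 11681 and 11562 with ecd RNAi, with 2528, 2598, 2624 and 2462 in controls (log2 fold change -2.04 ± 0.07, adjusted p = 3.39e-08). The transcription factor gene chinmo, a STAT target that keeps progenitors in an early state, was at 1046, 1117, 1603 and 1524 with ecd plus Xrp1 RNAi, at 13468, 17717, 22348 and 14103 with ecd RNAi, with 588, 539, 617 and 677 in controls (log2 fold change -3.67 ± 0.19, adjusted p = 3.74e-07). For Socs36E and chinmo the double RNAi values sat between the other groups without touching either. The kinase hop and the factor Stat92E, which carry the signal, did not pass, with log2 fold changes of 0.18 and -0.08.

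**Figure D2:**
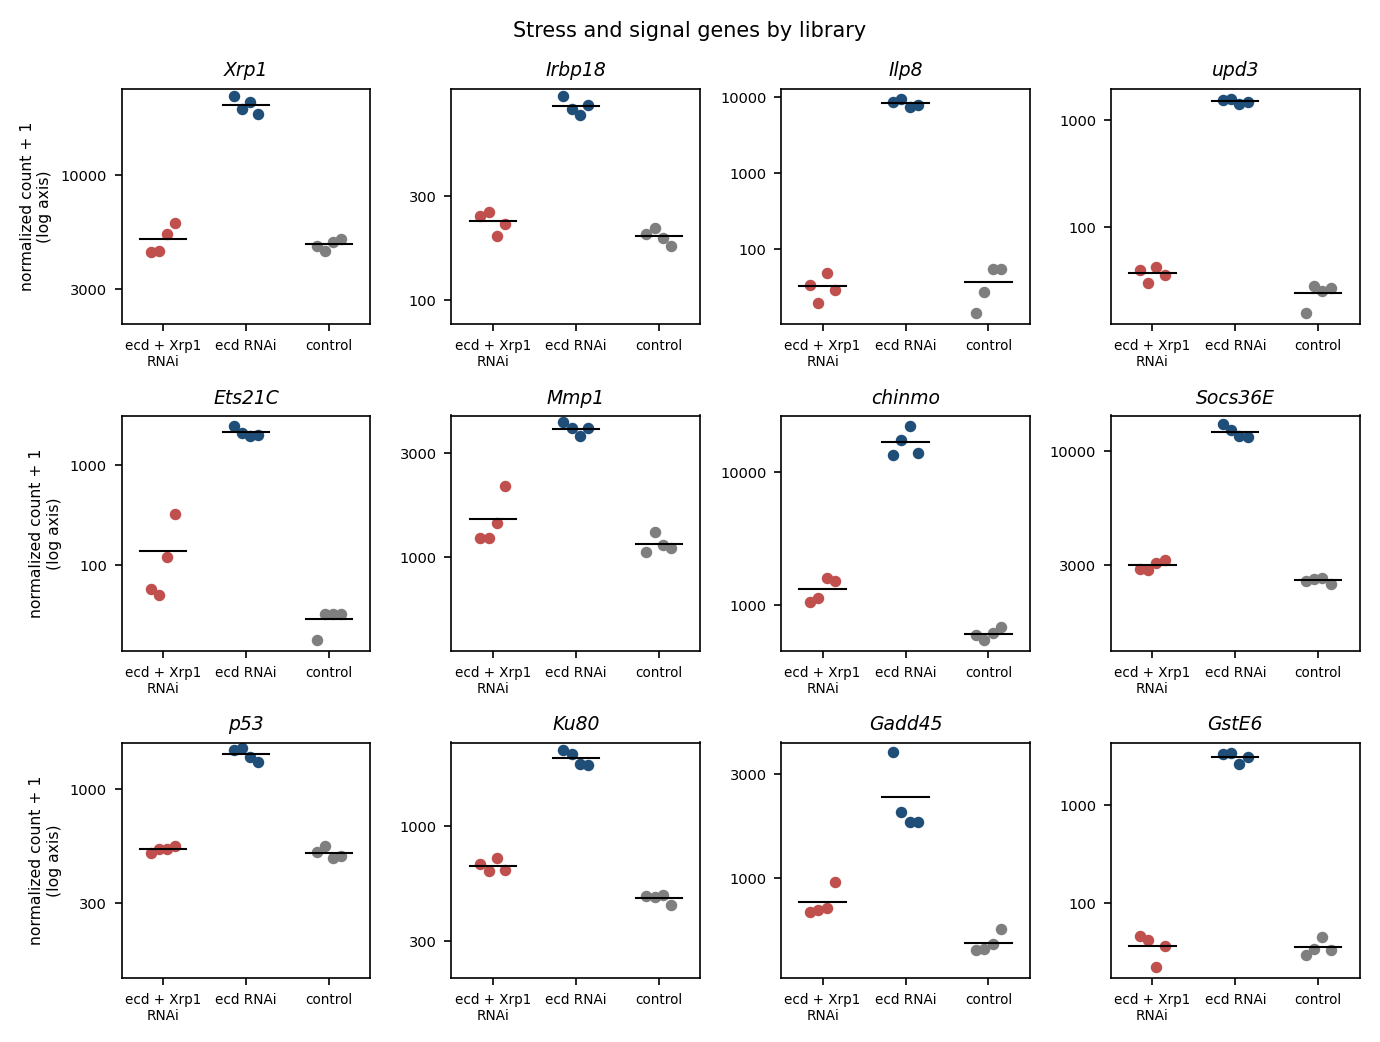
Normalized counts + 1 on a log axis for 12 stress and signal genes in each library of ecd plus Xrp1 RNAi (red, left), ecd RNAi (blue, middle) and control discs (grey, right), with a line at the group mean. In all 12 panels the 4 ecd plus Xrp1 RNAi libraries lie below the 4 ecd RNAi libraries, and for upd3, Ets21C, chinmo, Socs36E, Ku80 and Gadd45 they lie above the 4 controls.

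Genes of DNA repair fell together with p53. Of 26 genes of the DNA damage response, 14 fell and 5 rose, where 19.8% of all genes tested fell and 24.0% rose. The 5 were 2 without ecd RNAi replicate 3 or 4 or without ecd plus Xrp1 RNAi replicate 1, 2 or 3, 3 without its replicate 4, and 1 without both ecd RNAi replicates 3 and 4. The p53 transcript was at 510.0, 527, 532 and 547 normalized counts with ecd plus Xrp1 RNAi, at 1501, 1538, 1403 and 1321 with ecd RNAi, with 512, 544, 482 and 492 in controls (log2 fold change -1.44 ± 0.07, adjusted p = 2.85e-07). Both genes of the Ku heterodimer, which holds broken DNA ends for joining, fell with the gene of the ligase that seals them. Log2 fold changes were -1.90 ± 0.09 for Irbp, which encodes Ku70, -1.64 ± 0.08 for Ku80 and -1.29 ± 0.12 for DNAlig4 (adjusted p = 2.79e-07, 2.50e-07 and 2.81e-05).

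All members of the MRN complex, the sensor of double-strand breaks, fell as well. Mean levels of nbs, rad50 and mre11 were 641 ± 42.7, 1620.3 ± 115 and 1263 ± 47.6 with ecd plus Xrp1 RNAi against 2151 ± 183, 4743 ± 80.7 and 3539 ± 294 with ecd RNAi (SD, n = 4 each), and controls had 621 ± 32.1, 1446 ± 60.1 and 1391 ± 85.3. Their log2 fold changes were -1.74 ± 0.08, -1.55 ± 0.06 and -1.48 ± 0.07 (adjusted p = 2.47e-07, 9.33e-08 and 2.50e-07). The growth arrest gene Gadd45 was at 695, 711, 724 and 953 with ecd plus Xrp1 RNAi, at 3751, 1991, 1804 and 1792 with ecd RNAi, with 465, 472, 495 and 584 in controls, without overlap of any pair of groups (log2 fold change -1.54 ± 0.22, adjusted p = 4.17e-04). Corp, a target and inhibitor of p53, was listed at 0 in 3 ecd plus Xrp1 RNAi libraries and in all controls, with 242, 89.2, 69 and 108 in ecd RNAi libraries. Genes of checkpoint kinases that respond to damage were not among those that fell. grp, the fly Chk1, rose by 0.62 ± 0.08 (adjusted p = 1.57e-04), and lok, the fly Chk2, and tefu, the fly ATM, did not pass, with log2 fold changes of -0.13 and -0.14.

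Many genes of glutathione conjugation fell, where 19.8% of all genes tested fell and 24.0% rose. Of 28 glutathione S-transferase genes tested, 17 fell and 2 rose, with a median log2 fold change of -1.01. The 2 were 4 without ecd RNAi replicate 1. GstE6 was at 43.9, 40.3, 20.6 and 34.7 normalized counts with ecd plus Xrp1 RNAi, at 3347, 3409, 2626 and 3140.4 with ecd RNAi, with 28.3, 32.2, 43.3 and 31.8 in controls (log2 fold change -6.49 ± 0.21, adjusted p = 2.53e-08). Its double RNAi and control values overlapped and both lay far below ecd RNAi. GstE7 and GstD5 fell too, with log2 fold changes of -4.36 ± 0.44 and -5.34 ± 0.41 (adjusted p = 4.42e-05 and 7.24e-06), and GstD6 was listed at 0 in all ecd plus Xrp1 RNAi libraries, with 43.3, 33.5, 75.6 and 41.6 in ecd RNAi libraries. The widely expressed GstD1 fell by less, with a log2 fold change of -0.35 ± 0.12 (adjusted p = 0.045), and GstE11 rose by 0.64 ± 0.08 (adjusted p = 2.27e-04). Neighbouring genes of the GstD and GstE clusters are similar in sequence, so the split of reads between them is uncertain.

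Of 16 other redox enzyme genes, 5 rose and 4 fell, where 24.0% of all genes tested rose and 19.8% fell. The NADPH-producing malic enzyme gene Men was at 529, 543, 434 and 637 normalized counts with ecd plus Xrp1 RNAi, at 3310.2, 2378, 2130.4 and 2175 with ecd RNAi, with 668, 729.9, 586 and 630.0 in controls (log2 fold change -2.21 ± 0.15, adjusted p = 3.50e-06). Gclc, which makes the first intermediate of glutathione, fell by 1.17 ± 0.10 (adjusted p = 1.22e-05). Cat and Sod1, which remove hydrogen peroxide and superoxide, rose by 0.73 ± 0.09 and 0.62 ± 0.09 (adjusted p = 1.71e-04 and 3.24e-04). The oxidative stress factor cnc, the fly Nrf2, fell by 0.24 ± 0.07 (adjusted p = 0.0149), and its inhibitor Keap1 did not pass, with 0.02.

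The ATF4 branch of the stress response held changes in both directions. Of 13 members, 6 fell and 3 rose, where 19.8% of all genes tested fell and 24.0% rose. crc, the fly ATF4, was at 19111 ± 1006, 29729 ± 2668 and 18297 ± 854 normalized counts in ecd plus Xrp1 RNAi, ecd RNAi and control discs (SD, n = 4 each) and fell by 0.63 ± 0.09 on the log2 scale (adjusted p = 2.84e-04). Atf3 and the pseudokinase gene trbl also fell, with log2 fold changes of -1.79 ± 0.19 and -1.28 ± 0.15, as did the eIF2 kinase genes PEK and Gcn2, with -0.43 ± 0.08 and -0.45 ± 0.08 (adjusted p = 6.71e-05, 1.19e-04, 0.00153 and 0.00131). Thor, the translation inhibitor 4E-BP, was at 11.5, 23.4, 25.3 and 29.3 with ecd plus Xrp1 RNAi, at 124, 129, 174 and 111 with ecd RNAi, with 4.3, 11.5, 18.2 and 17.6 in controls (log2 fold change -2.59 ± 0.30, adjusted p = 1.09e-04). In contrast, CG6287, a predicted enzyme of serine synthesis, was at 3862, 3398, 2929.8 and 3481 with ecd plus Xrp1 RNAi, at 729, 579, 326 and 896 with ecd RNAi, with 4013, 4326, 4155 and 3519 in controls, a rise of 2.52 ± 0.26 (adjusted p = 5.12e-05). The amino acid transporter gene mnd rose by 1.98 ± 0.20 (adjusted p = 5.09e-05). For CG6287 and mnd the double RNAi values overlapped control.

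Of 14 regulators of growth under TOR and insulin, 4 rose and 5 fell, against the same 24.0% and 19.8% of all genes. The lowest value of this list, -2.59, is that of Thor, counted above under the ATF4 branch. REPTOR, a bZIP factor that carries out most of the transcriptional response to low TOR activity, fell by 1.69 ± 0.11 on the log2 scale, to 914 ± 109 with ecd plus Xrp1 RNAi against 2944 ± 333 with ecd RNAi (SD, n = 4 each, adjusted p = 1.71e-06). Its partner REPTOR-BP fell by 0.89 ± 0.10 (adjusted p = 8.50e-05). The insulin receptor gene InR rose by 0.51 ± 0.07 (adjusted p = 4.15e-04). The 4 higher members were 2 without ecd RNAi replicate 3 or without ecd plus Xrp1 RNAi replicate 1, 2 or 4.

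Of 14 cell death genes tested, 6 fell and 3 rose, where 19.8% of all genes tested fell and 24.0% rose. Their median log2 fold change was -0.34. The lowest, -2.05, matches the value of Xrp1 itself, the target of the added RNAi, whose fall is no separate result. The pro-apoptotic gene rpr was at 207, 219, 181 and 217 normalized counts with ecd plus Xrp1 RNAi, at 460.2, 451, 365 and 439.7 with ecd RNAi, with 263, 296, 305 and 271 in controls (log2 fold change -1.05 ± 0.11, adjusted p = 5.60e-05). The second pro-apoptotic gene, hid, was at 2549, 2485, 2487 and 3097 with ecd plus Xrp1 RNAi, at 3734, 4214, 3499.9 and 3831 with ecd RNAi, with 3594, 3645, 3554 and 3461 in controls (log2 fold change -0.53 ± 0.09, adjusted p = 9.42e-04). For rpr and hid alike, all double RNAi values were below control as well as below ecd RNAi. Diap1, which blocks caspases, rose by 0.38 ± 0.09, and the effector caspase gene Dcp-1 by 0.64 ± 0.17 (adjusted p = 0.00764 and 0.0117), whereas the initiator caspase gene Dronc did not pass, with 0.03.

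Genes of protein quality control rose, where 24.0% of all genes tested rose and 19.8% fell. All 32 proteasome subunit genes rose, by 0.40 to 1.28 on the log2 scale, with a median of 0.70, and in all 32 the double RNAi values overlapped control, as they did for 83.1% of genes tested. Rpt2, an ATPase of the proteasome base, was at 5194, 4930.1, 4886 and 4619 normalized counts with ecd plus Xrp1 RNAi, at 3140.1, 3289, 2618 and 2755 with ecd RNAi, with 5952, 5757, 4913 and 5199 in controls (log2 fold change 0.74 ± 0.08, adjusted p = 8.06e-05). The top value belonged to Prosalpha1, whose groups overlapped (adjusted p = 0.0423) and which did not pass without ecd RNAi replicate 1, 2 or 4 or without ecd plus Xrp1 RNAi replicate 1, 2 or 3, with adjusted p of up to 0.109.

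Genes of the unfolded protein response and protein entry into the endoplasmic reticulum (ER) had a median log2 fold change of 0.58. Of 21 tested, 14 rose and 2 fell, against 24.0% and 19.8% of all genes. The 2 were 1 without ecd RNAi replicate 1 or 4 or ecd plus Xrp1 RNAi replicate 1, 2 or 3. Hsc70-3, the ER chaperone BiP, was at 26498, 24817, 21031 and 22033 normalized counts with ecd plus Xrp1 RNAi, at 13885, 12957, 9328 and 10730.4 with ecd RNAi, with 28476, 28318, 24564 and 23343 in controls (log2 fold change 1.02 ± 0.13, adjusted p = 2.12e-04). Pdi, which forms disulfide bonds, and the translocon genes Sec61alpha and Sec61gamma rose by 1.10 ± 0.13, 1.07 ± 0.12 and 1.13 ± 0.12 (adjusted p = 1.13e-04, 9.26e-05 and 6.29e-05). Xbp1, a transcription factor of this response, rose by 0.58 ± 0.11 (adjusted p = 0.00177), and Atf6, another, did not pass, with -0.07.

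Heat shock protein genes rose in 14 of 20 cases and fell in none, against 24.0% and 19.8% of all genes tested. The small heat shock protein gene Hsp27 was at 32862, 28485, 26731 and 34261 normalized counts with ecd plus Xrp1 RNAi, at 8595, 9751, 4610.4 and 7832 with ecd RNAi, with 40655, 37309, 29295 and 33119 in controls (log2 fold change 2.04 ± 0.21, adjusted p = 4.52e-05). Hsp83, the fly Hsp90, rose by 0.77 ± 0.17 (adjusted p = 0.00516). The 14 were 9 without ecd RNAi replicate 4 and 8 without ecd RNAi replicates 3 and 4. The Hsp70 genes are near-identical copies, and the share of reads given to each is uncertain.

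Subunits of oxidative phosphorylation rose in 27 of 33 cases and fell in none, against 24.0% and 19.8% of all genes tested. The rise was at most 0.75 on the log2 scale, for COX8, a subunit of the last complex of the respiratory chain (adjusted p = 1.94e-04). The lactate-forming enzyme gene Ldh was at 335, 381, 209 and 452 normalized counts with ecd plus Xrp1 RNAi, at 6610.1, 2505, 1558 and 2191 with ecd RNAi, with 344, 363, 328 and 320.3 in controls (log2 fold change -3.04 ± 0.40, adjusted p = 2.34e-04). Replicate 1 of ecd RNAi was the highest, and no double RNAi value reached an ecd RNAi value. Of the 11 genes of glycolysis and lactate, 2 fell and none rose, and the count that fell was 1 without ecd RNAi replicate 1 or 2 or ecd plus Xrp1 RNAi replicate 1 or 2, and 5 and 4 without ecd RNAi replicates 3 and 4, each left out alone. It was 6 without both of these or with array weights, which weight libraries by their spread, and 5 under quantile normalization or median-of-ratios scaling. Of 19 autophagy genes, 3 rose and 6 fell, against 24.0% and 19.8% of all genes. The selective autophagy receptor ref(2)P, the fly p62, fell by 1.16 ± 0.09 (adjusted p = 8.13e-06). The 3 higher members were Atg1, Atg3 and Atg12, and none of the list rose without ecd RNAi replicates 3 and 4.

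**Figure D3:**
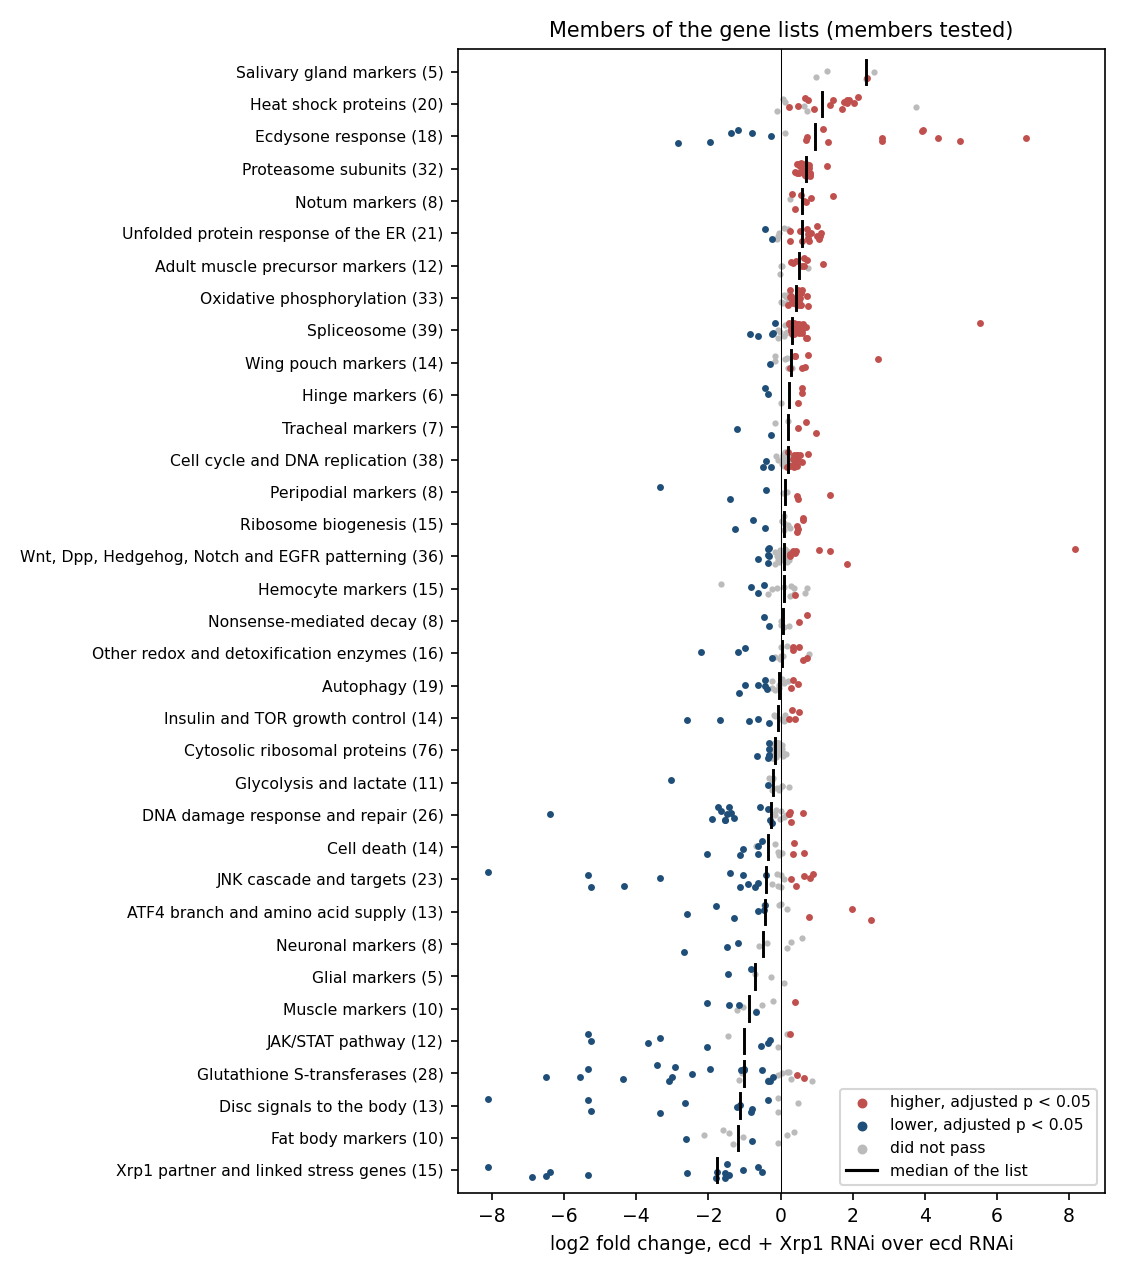
Log2 fold changes of ecd plus Xrp1 RNAi over ecd RNAi (horizontal axis) of the members of 35 gene lists (rows, with the number tested), in red where higher and blue where lower at an adjusted p under 0.05 and grey otherwise, with a black line at each list's median. Proteasome subunits lie entirely to the right of 0, with 32 of 32 higher, and Xrp1-linked genes entirely to the left, with 15 of 15 lower.

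A list of 15 genes linked to Xrp1 by general knowledge, which may draw on this study, fell in all 15 cases, against 19.8% of all genes tested. Its median log2 fold change was -1.76. It holds Irbp18, Ilp8, Arc1, upd3, GstE6 and others described above, so it is not a separate line of evidence.

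Most ecdysone-response genes changed. Ecdysone is the steroid hormone whose pulses time moulting and metamorphosis, and its early and early-late response genes are switched on in sequence late in larval life. Of 18 genes tested, 11 rose and 6 fell, against 24.0% and 19.8% of all genes, with a median log2 fold change of 0.95. Hr3, a nuclear receptor induced by the hormone, was at 1342, 999, 749 and 1143 normalized counts with ecd plus Xrp1 RNAi, at 25.6, 7.41, 1.44 and 13 with ecd RNAi, with 1007, 1238, 1075 and 750.3 in controls (log2 fold change 6.79 ± 0.60, adjusted p = 1.83e-05). ImpE2, an ecdysone-induced gene of disc eversion, was at 54849, 48005, 38614 and 53952 with ecd plus Xrp1 RNAi, at 5698, 2899.8, 385 and 4741 with ecd RNAi, with 77207, 79559, 62754 and 61739 in controls (log2 fold change 4.37 ± 0.71, adjusted p = 8.00e-04). The double RNAi values of Hr3 overlapped control, and those of ImpE2 stayed below it.

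The repressor gene Blimp-1 and the nuclear receptor genes Hr4 and Eip78C showed the same direction. Their means were 4643 ± 1758, 5242 ± 2218 and 3374 ± 706 with ecd plus Xrp1 RNAi against 207 ± 144, 329 ± 99.3 and 258 ± 129 with ecd RNAi (SD, n = 4 each), with log2 fold changes of 4.98 ± 0.75, 3.95 ± 0.29 and 3.92 ± 0.45 (adjusted p = 5.27e-04, 4.53e-06 and 1.08e-04). Replicate 3 of ecd RNAi had the lowest value of Hr3, ImpE2, Blimp-1, Hr4 and Eip78C. The receptor gene EcR went the other way, at 8979, 9341, 10924 and 11045 with ecd plus Xrp1 RNAi, at 20528, 24218, 26774 and 19959 with ecd RNAi, with 8038, 7996, 8695 and 9369 in controls (log2 fold change -1.18 ± 0.11, adjusted p = 3.42e-05). The genes ftz-f1, the competence factor of the prepupa, and Eip93F, of the prepupal and pupal stages, also fell, with -2.83 ± 0.18 and -1.94 ± 0.37 (adjusted p = 1.53e-06 and 0.00207). The receptor partner usp did not pass, with 0.13.

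Of 36 patterning genes, 9 rose and 6 fell, shares near the 24.0% and 19.8% of all genes tested. The ligands wg, hh and Ser did not pass, with log2 fold changes of 0.07, 0.08 and 0.12, and dpp fell by 0.35 ± 0.08 (adjusted p = 0.00767). Genes of wing cell fate were among those that rose. bs, the fly SRF needed for intervein tissue, was at 3198, 2894, 2852 and 3585 normalized counts with ecd plus Xrp1 RNAi, at 1077, 823, 813 and 795 with ecd RNAi, with 3817, 4145, 3396 and 3522 in controls (log2 fold change 1.84 ± 0.11, adjusted p = 1.28e-06). The antisense RNA of the same locus, asRNA:bsAS, was listed at 0 in all 4 ecd RNAi libraries, with 1018, 931, 1031 and 1295 in ecd plus Xrp1 RNAi libraries and 1225, 1342, 1133 and 1239 in controls. As it overlaps bs on the opposite strand and the sources used here give no strand setting for the counting, reads of bs and its antisense RNA may be mixed. The EGF antagonist gene aos was likewise listed at 0 with ecd RNAi, with 299, 326, 285 and 247 in ecd plus Xrp1 RNAi libraries and 392, 314, 254 and 264 in controls. Wnt4 rose by 1.38 ± 0.21 (adjusted p = 6.11e-04).

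Region markers of the disc differed by region. Of 14 pouch markers, 7 rose and 1 fell, or 2 without ecd plus Xrp1 RNAi replicate 4 and 3 under quantile normalization or array weights, where 24.0% of all genes tested rose and 19.8% fell. sens, the zinc finger gene of sensory organ precursors and the margin, was at 152, 127, 148 and 167 normalized counts with ecd plus Xrp1 RNAi, at 35.7, 18.1, 18.5 and 19.7 with ecd RNAi, with 213, 206, 238 and 181 in controls (log2 fold change 2.69 ± 0.25, adjusted p = 2.43e-05), and no pair of groups overlapped. Of 8 notum markers, whose expression need not be confined to tissue outside the driver's domain, 7 rose and none fell. Among them sr, a tendon cell factor, was at 713 ± 98.1, 264 ± 56.1 and 601 ± 77.3 in ecd plus Xrp1 RNAi, ecd RNAi and control discs (SD, n = 4 each), a rise of 1.45 ± 0.17 (adjusted p = 1.04e-04). Of 12 markers of adult muscle precursors, which underlie the notum, 8 rose and none fell, with Him at 1.19 ± 0.17 (adjusted p = 4.57e-04). Hinge markers went both ways, with 3 of 6 higher, among them hth with 0.60 ± 0.10, and 2 lower, Sox15 with -0.44 ± 0.07 and zfh2 with -0.36 ± 0.10 (adjusted p = 9.19e-04, 0.00105 and 0.0158). The 2 were 1 without ecd plus Xrp1 RNAi replicate 1 or without both ecd RNAi replicates 3 and 4. Of 8 peripodial markers, 3 rose and 3 fell, and the 3 that fell, upd1, Mmp1 and puc, also belong to the stress and signal lists.

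Summed levels of the marker lists give the size of these shifts per library. Notum markers took 563 to 619 per M of gene signal with ecd plus Xrp1 RNAi, 348 to 416 with ecd RNAi and 553 to 584 in controls. Muscle precursor markers took 379 to 410, 273 to 302 and 382 to 420 per M in the same 3 groups, and pouch markers 2349 to 2620, 1778 to 2204 and 2618 to 2748. The RNAi groups did not overlap in these 3 sums (exact permutation test, two-sided, p = 0.0286, the smallest that 70 splits allow, and 0.0686 after adjustment over 12 lists). Hinge and peripodial sums overlapped between the RNAi groups. Hinge markers took 2135 to 2334 per M with ecd plus Xrp1 RNAi, 1925 to 2153 with ecd RNAi and 2068 to 2324 in controls (exact permutation test, p = 0.0571). Peripodial markers took 594 to 684, 642 to 679.6 and 616 to 750.3 per M in the same groups (exact permutation test, p = 0.457). The part of such shifts of tissue make-up in the changes of single genes was not tested.

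Markers of other cell types that could adhere to discs were followed as well. Among all genes tested, 24.0% rose and 19.8% fell, and the shares of hemocyte and fat body markers that fell were near the latter. The summed share of 8 neuronal markers was 61.6 to 131 per M with ecd plus Xrp1 RNAi, 218 to 291 with ecd RNAi and 48.1 to 113 in controls. Of the 8, 3 fell and none rose, and 1 fell without both ecd RNAi replicates 3 and 4, under quantile normalization or with a minimum mean of 50. In ecd RNAi libraries most of the sum was Snap25, a synaptic vesicle fusion protein, at 882, 1042, 1060.4 and 1258 normalized counts with ecd plus Xrp1 RNAi, at 5771, 7515, 6954 and 6608 with ecd RNAi, with 464, 601, 544 and 571 in controls (log2 fold change -2.67 ± 0.11, adjusted p = 1.24e-07), while the pan-neuronal elav did not pass, with -0.37. Syt1, another synaptic gene, was above Snap25 in ecd plus Xrp1 RNAi replicates 1 and 2, at 1735 and 2240, and in control replicate 3, at 1591. Tracheal marker sums did not overlap between the RNAi groups either, at 1123 to 1166 per M with ecd plus Xrp1 RNAi, 774 to 993 with ecd RNAi and 1230 to 1405 in controls (exact permutation test, p = 0.0286, adjusted p = 0.0686). Most of this gap lay in pio, at 14350, 12810, 11610 and 14690 normalized counts with ecd plus Xrp1 RNAi and 7189, 6706, 6236 and 6783 with ecd RNAi. The abundant vvl and serp overlapped between the RNAi groups. Of 7 tracheal markers, 3 rose, among them pio with 0.99 ± 0.09, and 2 fell, bnl with -1.21 ± 0.15 and verm with -0.28 ± 0.10 (adjusted p = 1.77e-05, 1.40e-04 and 0.042). The 2 were 1 without ecd RNAi replicate 1, 2 or 3, without ecd plus Xrp1 RNAi replicate 1, 2 or 3, with no filter on low values or in a fit of all 12 libraries. Glial sums of 208 to 244, 243 to 314 and 251 to 270 per M in ecd plus Xrp1 RNAi, ecd RNAi and control discs overlapped, and 2 of 5 glial markers fell. Salivary gland markers summed to 2.11 to 6.22 per M with ecd plus Xrp1 RNAi, 0.157 to 2.58 with ecd RNAi and 4.69 to 42.9 in controls, and 1 of 5 rose, or up to 4 under the alternatives. Of 15 hemocyte markers, 3 fell and 1 rose, and the rise was lost without ecd RNAi replicate 3 or 4 or any single ecd plus Xrp1 RNAi replicate. Of 10 muscle markers 4 fell and 1 rose, among them the myosin light chain gene Mlc2, which fell by 2.05 ± 0.15 (adjusted p = 3.88e-06), and 2 fell without ecd RNAi replicates 3 and 4. Of 10 fat body markers 2 fell and none rose, and the 2 were 6 without ecd RNAi replicate 2 and 1 without ecd RNAi replicate 3 or 4 or any single ecd plus Xrp1 RNAi replicate.

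Cell cycle genes rose in 18 of 38 cases and fell in 3, against 24.0% and 19.8% of all genes tested, with a median log2 fold change of 0.20. The mitotic kinase gene Cdk1 was at 3351 ± 329, 1985 ± 298 and 3379 ± 164 normalized counts in ecd plus Xrp1 RNAi, ecd RNAi and control discs (SD, n = 4 each) and rose by 0.76 ± 0.12 (adjusted p = 5.70e-04). The replication helicase gene Mcm7 rose by 0.58 ± 0.10 (adjusted p = 0.00118). stg, the Cdc25 phosphatase that triggers mitosis, fell by 0.49 ± 0.10 (adjusted p = 0.00277). The 18 were 11 without ecd RNAi replicates 3 and 4.

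The spliceosome's own genes rose in 27 of 39 cases and fell in 5, with a median log2 fold change of 0.32. Among all genes tested, 24.0% rose and 19.8% fell. The core Sm gene SmE was at 1544 ± 201, 938 ± 139 and 1536 ± 121 normalized counts in ecd plus Xrp1 RNAi, ecd RNAi and control discs (SD, n = 4 each), a rise of 0.72 ± 0.13 (adjusted p = 0.00147). SmD3 had values of 198, 211, 323 and 265 with ecd plus Xrp1 RNAi and 24.4, 29.6, 0 and 0 with ecd RNAi, but it overlaps Oda and an antisense RNA on the opposite strand. The 5 that fell were Prp31, Brr2, U2af50, Prp6 and fand, of which Prp31, Brr2 and Prp6 serve the tri-small-nuclear-ribonucleoprotein particle that Prp8, which rose, also enters. Log2 fold changes were -0.85 ± 0.08 for Prp31 and -0.63 ± 0.08 for Brr2, an RNA helicase (adjusted p = 2.19e-05 and 2.24e-04). The count that fell was 2 without ecd RNAi replicate 1 or 2 or ecd plus Xrp1 RNAi replicate 3 or 4, and 3 without ecd plus Xrp1 RNAi replicate 2.

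Of 76 cytosolic ribosomal protein genes, 6 fell and none rose, against 19.8% and 24.0% of all genes, with a median log2 fold change of -0.14. The 6 were 2 without ecd RNAi replicate 1 or 2 or ecd plus Xrp1 RNAi replicate 2 or 4, and 3 without ecd plus Xrp1 RNAi replicate 1, but 18 with array weights and 17 without both ecd RNAi replicates 3 and 4. Of 15 ribosome biogenesis genes, 5 rose and 3 fell, near the 24.0% and 19.8% of all genes. The GTPase gene Non1 was at 11708, 11256, 12496 and 11219 normalized counts with ecd plus Xrp1 RNAi, at 30470.4, 26956, 29049.8 and 25671 with ecd RNAi, with 11048, 10693, 9814 and 10714 in controls (log2 fold change -1.26 ± 0.08, adjusted p = 1.53e-06). Myc, which drives growth, fell by 0.76 ± 0.08, and the nucleolar gene Nopp140 rose by 0.63 ± 0.10 (adjusted p = 5.33e-05 and 7.66e-04).

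Of 8 nonsense-mediated decay genes, 2 rose, mago and tsu, which belong to the exon junction complex, with 0.73 ± 0.11 and 0.53 ± 0.08, and 2 fell, Smg5 and Smg6, with -0.45 ± 0.08 and -0.31 ± 0.05 (adjusted p = 4.62e-04, 6.35e-04, 0.00112 and 0.00119). These counts are near the 24.0% and 19.8% of all genes tested that rose and fell.

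The largest rises include transcripts that were nearly absent from ecd RNAi discs. Beside asRNA:bsAS, aos and Hr3 these were Pbp45, a subunit of the complex that binds promoters of small nuclear RNA genes, and CG46321, both listed at 0 in all ecd RNAi libraries. Pbp45 had 156, 159, 173 and 144 normalized counts with ecd plus Xrp1 RNAi and 117, 111, 126 and 155 in controls. CG46321 lies within Hr3 on the same strand and had 167, 204, 109 and 299 with ecd plus Xrp1 RNAi and 112, 119.7, 53.6 and 111 in controls. The gene fok was at 328, 301, 191 and 511 with ecd plus Xrp1 RNAi, at 0, 0, 0 and 127 with ecd RNAi, with 416, 488, 505 and 435 in controls. It passed in limma (adjusted p = 0.00410) but not in the authors' deposited comparison (authors' adjusted p = 0.0882). Genes on the opposite strand overlap fok (neb), Pbp45 (spn-E) and aos (CG33158), so their values are uncertain.

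A few genes stood high with ecd plus Xrp1 RNAi against both other groups, of which Syt4 and Dscam4 were chosen after their values were seen. The U2 small nuclear RNA gene snRNA:U2:34ABa was at 22438, 22690.1, 14529 and 16569.8 normalized counts with ecd plus Xrp1 RNAi, at 26, 35.5, 22.4 and 77.2 with ecd RNAi, with 14.8, 17.4, 22.5 and 25.1 in controls (log2 fold change 8.997 ± 0.33, adjusted p = 6.79e-08). U2 genes are near-identical copies, so which copy the reads came from is uncertain. ftz, a homeobox gene of early embryonic segmentation, was at 279.9, 424, 551 and 474 with ecd plus Xrp1 RNAi and was listed at 0 in all ecd RNAi and all control libraries.

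The synaptotagmin gene Syt4 and the cell adhesion gene Dscam4 showed this pattern in tissue that holds few neurons. Syt4 was at 793, 817, 736 and 715 normalized counts with ecd plus Xrp1 RNAi, at 23.4, 14.2, 123 and 91.8 with ecd RNAi, with 21.8, 49.1, 137 and 120.0 in controls (log2 fold change 4.07 ± 0.58, adjusted p = 3.93e-04). Dscam4 was at 863, 870.4, 789 and 1149.6 with ecd plus Xrp1 RNAi, at 44.6, 14.2, 121 and 121 with ecd RNAi, with 29.7, 35.4, 108 and 64.2 in controls (log2 fold change 4.00 ± 0.58, adjusted p = 3.99e-04). The linker histone copy His1:CG33834 averaged 871 ± 538, 26.7 ± 20.9 and 47.5 ± 32.6 in ecd plus Xrp1 RNAi, ecd RNAi and control discs (SD, n = 4 each), but histone copies are near-identical and their values uncertain.

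**Figure D4:**
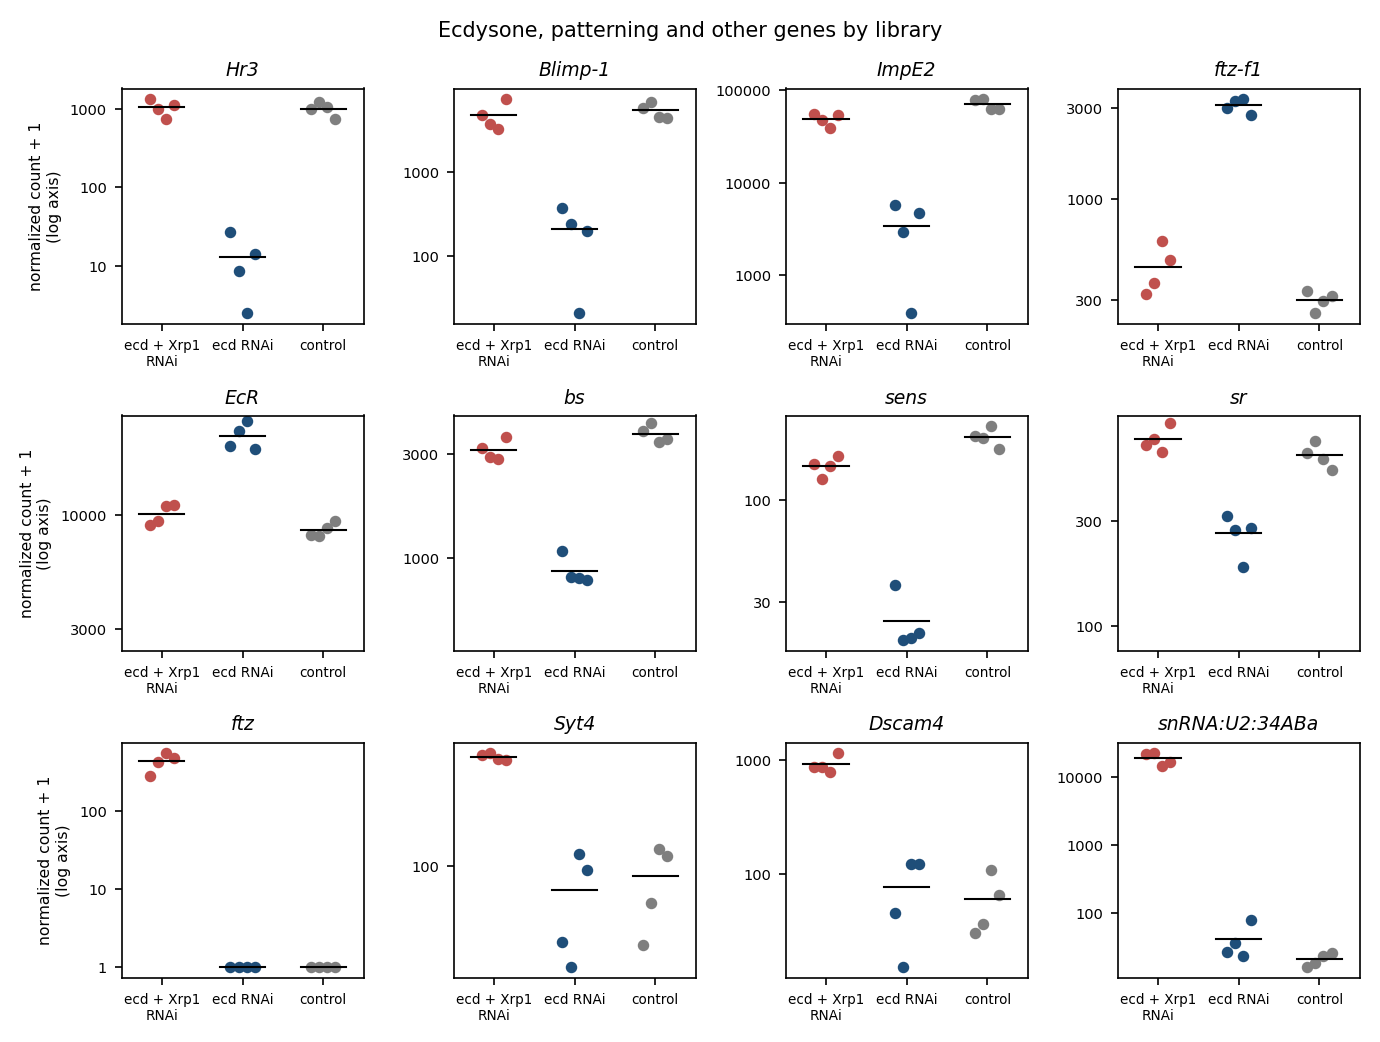
Normalized counts + 1 on a log axis for ecdysone-response genes (Hr3, Blimp-1, ImpE2, ftz-f1, EcR), wing fate genes (bs, sens, sr) and genes high with ecd plus Xrp1 RNAi (ftz, Syt4, Dscam4, snRNA:U2:34ABa), by library, with ecd plus Xrp1 RNAi left (red), ecd RNAi in the middle (blue), control right (grey) and a line at the mean. In each panel of the bottom row the 4 ecd plus Xrp1 RNAi libraries lie above all 8 others.

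Whether splicing itself differed was read from intron retention, the share of an intron's transcripts that keep it. In the authors' deposited table of 17817 introns, 37 passed an adjusted p of 0.05 between the RNAi groups (0.208%), 23 lower (0.129%) and 14 higher (0.0786%) with ecd plus Xrp1 RNAi. The median retention in the authors' deposited table was 7.89% with ecd plus Xrp1 RNAi, 8.08% with ecd RNAi and 7.02% in controls. By the group means of the authors' deposited table, 85.6% of introns differed by less than 5 percentage points between the RNAi groups. The same authors' deposited table has 224 introns past 0.05 for ecd plus Xrp1 RNAi against control, 212 of them higher with the RNAi, and 413 for ecd RNAi against control, 388 of them higher. These comparisons share their control and RNAi samples.

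The introns with the largest falls lay in Idh, p53, Cul2 and CG4210. Intron 1 of Idh (chromosome 3L, 8358715 to 8358849), an NADPH-producing isocitrate dehydrogenase gene, was retained in the authors' deposited table at 32.4% with ecd plus Xrp1 RNAi, 73.3% with ecd RNAi and 29.2% in controls (authors' adjusted p = 5.11e-08). Introns 3 and 2 of p53 (chromosome 3R, 23052948 to 23053011 and 23053048 to 23053118) stood in the authors' deposited table at 6.31% and 4.63% with ecd plus Xrp1 RNAi, 43.4% and 35.1% with ecd RNAi and 8.34% and 3.25% in controls. An antisense RNA overlaps p53 on the opposite strand, and its reads could count as retained intron. Intron 1 of Cul2 (chromosome 2L, 21658961 to 21659094), a scaffold of ubiquitin ligases, was in the authors' deposited table at 56.3%, 93.4% and 47.2% in ecd plus Xrp1 RNAi, ecd RNAi and control discs. The Cul2 transcript as a whole fell by 2.53 ± 0.06 on the log2 scale (adjusted p = 3.71e-09).

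The largest rise of retention was in intron 1 of MRP (chromosome 2L, 12719240 to 12722354), an ABC transporter gene. In the authors' deposited table it was at 75.2% with ecd plus Xrp1 RNAi, 20.4% with ecd RNAi and 79.3% in controls (authors' adjusted p = 1.91e-17), while the MRP transcript fell by 1.71 (adjusted p = 1.02e-06). In the authors' deposited table, DCTN3-p24 intron 1 was at 93.8% with ecd plus Xrp1 RNAi, 55.7% with ecd RNAi and 49.3% in controls, and intron 4 of unc-13 (chromosome 4, 906997 to 907073) was at 84.4%, 49.0% and 84.1% in the same groups. Other unc-13 introns in the authors' deposited table were lower. Introns 16 and 11 were at 26.8% and 19.4% with ecd plus Xrp1 RNAi against 52.6% and 42.3% with ecd RNAi. An intron at 902234 to 902306 was at 95.0% against 98.6%. The unc-13 transcript fell by 2.29 ± 0.09 (limma adjusted p = 9.33e-08). Few of these introns are free of other features. By the authors' deposited table, 4 of the 37 carry the class clean, with no mark of a known exon or of an antisense gene, and 15 are marked as holding a known exon. Of all 17817 introns in the authors' deposited table, 5236 are clean and 1192 are marked as holding a known exon. The introns of Idh, p53 and DCTN3-p24 named here and intron 4 of unc-13 carry the known-exon mark.

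**Figure D5:**
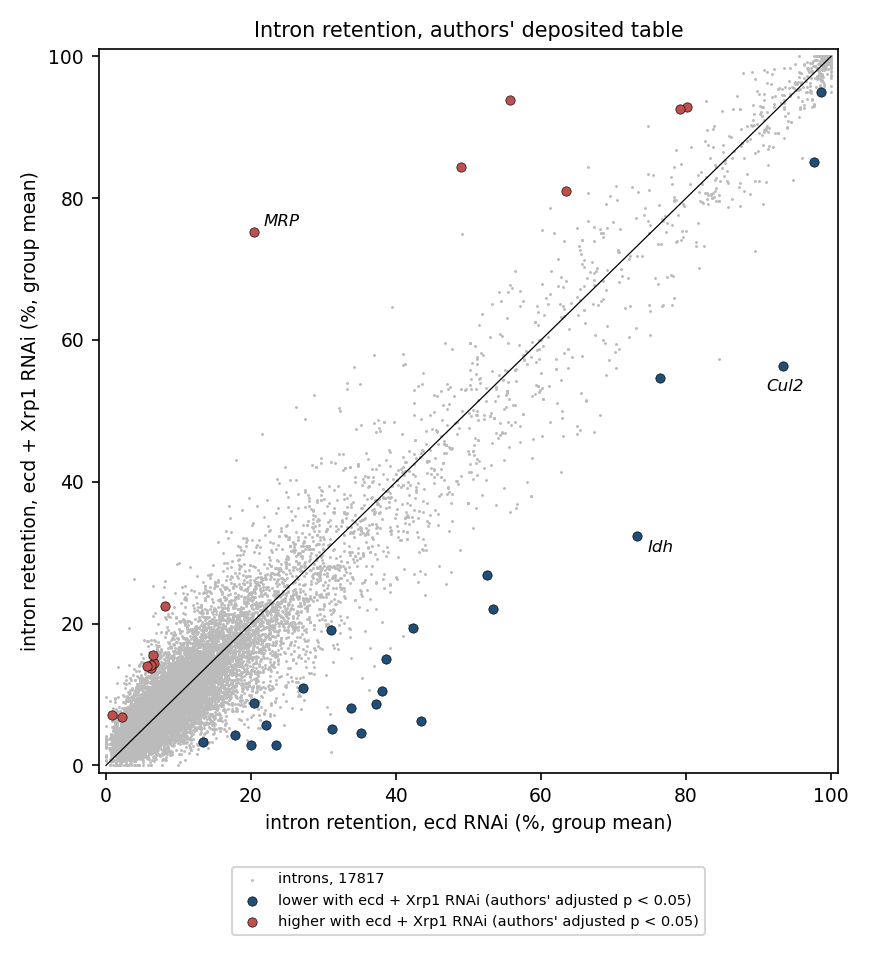
Mean intron retention in percent with ecd plus Xrp1 RNAi (vertical axis) against ecd RNAi (horizontal axis) for 17817 introns of the authors' deposited table, with the diagonal of equal retention and the introns past the authors' adjusted p of 0.05 in blue (23, lower with ecd plus Xrp1 RNAi) and red (14, higher). Most introns lie along the diagonal, and Idh, Cul2 and MRP lie far from it.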

How the data were processed

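RNA sequencing of wing discs gave expression values for 12 samples in 3 groups of 4, grouped and numbered by their sample titles. Per the labels' protocols, RNA came from pools of discs, and the kit kept strand and removed ribosomal RNA. The labels differ on the read layout, which is not taken as known here. As tools, the submitters' processing notes name kallisto 0.46.1, cutadapt 3.5, FastQC and DESeq2 1.34.0, and as genome build BDGP6. No source used here gives the strand setting of the counting, so genes that overlap an antisense gene have uncertain values.

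Expression values are normalized counts deposited by the authors, treated here as a signal. Rows that are not genes (6063 of 23932) stayed out of the tests and took 0.546% to 0.645% of the signal in ecd plus Xrp1 RNAi libraries, 5.65% to 7.40% in ecd RNAi libraries and 0.452% to 0.515% in controls. Raw counts were not used here. In each library, only 48.8% to 76.9% of low values were whole reads within a tolerance of 0.03, so reads were not recovered, and precision is that of the spread between 4 libraries. The authors' deposited comparison table gives, per the file headers, log2 fold changes, a score for each test and p-values, all made with DESeq2 by the authors. Per the file headers, the authors' deposited intron table gives each intron's retention ratio as a fraction with the authors' adjusted p, and percent values here are that fraction times 100. Its 12 columns of ratios per sample have names that match no label, and they stayed unused.

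Symbols were found for 17790 of 17869 gene IDs, and positions are from the BDGP6 Ensembl annotation, 1-based. Of these, 10179 genes whose mean over the 12 libraries reached 10 were analysed as log2(value + 1), a scale that understates changes of low genes. The 8 libraries of both RNAi groups were fitted with a term per group in limma 3.58.1 under R 4.3.3, with empirical Bayes moderation and a trend, after a test of the procedure on simulated data. Tests were two-sided, with Benjamini-Hochberg adjustment over the genes tested and a threshold of 0.05, and each adjusted p is from limma unless it is named as the authors'. Exact permutation tests over 70 splits were used for sums per library. Genes listed at 0 throughout a group are given by value only.

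Named genes are ecd, Xrp1 and Irbp18, the 10 largest falls and 10 largest rises among genes averaging 50 or more whose groups did not overlap, and up to 3 members of each list that fell most and 3 that rose most. Others were chosen after their values were seen. For introns, the 5 largest falls and rises were taken. The comparison, the 35 gene lists and the named genes were chosen with earlier results of these data known, 39 of the 708 listed symbols matched no gene row, and the counts of a list are described without a test of the list. Alternatives changed the pseudocount, the filter, the scaling, the libraries in the fit, library weights, a replicate block and identical rows, and left out libraries.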

Additional observations from a re-analysis of the deposited data

Results flagged for a closer look

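Signal outside the genes was far apart between the groups. Rows of transposable elements and other features that are not genes took 0.613% ± 0.046 of the signal with ecd plus Xrp1 RNAi, 6.65% ± 0.879 with ecd RNAi and 0.483% ± 0.0345 in controls (SD, n = 4 each), and the RNAi groups did not overlap (exact permutation test, two-sided, p = 0.0286, the smallest that 70 splits allow). Rows of the retrotransposon copia held 0.0704% to 0.136% with ecd plus Xrp1 RNAi, 2.97% to 4.46% with ecd RNAi and 0.0407% to 0.0524% in controls. Those of flea held 0.0373% to 0.0424%, 0.902% to 1.18% and 0.0195% to 0.0247% in the same groups. Rows of invader4 held 0.0010% to 0.0022%, 0.18% to 0.25% and 0.0015% to 0.0027% in the same order of groups. In rows of invader1, 1731, mdg3 and no named family, all ecd RNAi libraries also lay above all ecd plus Xrp1 RNAi libraries. Other families went otherwise. Rows of gypsy held 0.0566% to 0.0770% with ecd plus Xrp1 RNAi, 0.0208% to 0.0445% with ecd RNAi and 0.0565% to 0.0652% in controls, those of HeT-A 0.0180% to 0.0222%, 0.0131% to 0.0168% and 0.0181% to 0.0216%, and those of 3S18 overlapped between the RNAi groups. These elements have many similar copies, and which copies the reads came from was not examined.

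In 17 groups of 4 libraries, 1 library stood far from the other 3 by its gap relative to the group's range. Chance gives this in about 1 of 20 groups, and 246 were looked at. Replicate 4 of ecd plus Xrp1 RNAi was the high library for 5 genes, at 4962 normalized counts for kay, 2.41 for Corp, 953 for Gadd45, 3097 for hid and 22.9 for Eip93F. Other libraries of ecd plus Xrp1 RNAi stood apart at 3.07 for Tsf3 (replicate 3), 6.84 for CR10102 (replicate 1) and 299 for Him (replicate 3). Among ecd RNAi libraries, replicate 1 stood high at 3751 for Gadd45, 35.7 for sens and 1077 for bs. Replicate 2 of ecd RNAi stood high at 1484 for upd1, replicate 4 at 127 for fok, and replicate 3 low at 69.5 for Eip78C and 80.9 for Him. The summed pouch markers of ecd RNAi replicate 4 were low at 1778 per M, and the summed muscle markers of ecd RNAi replicate 3 were high at 636 per M. Without the library named, every gene of this paragraph kept its direction and its side of the threshold.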

How the results depend on the processing

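The number of genes that changed was 3719 to 4930 over all alternatives, against 4456. Leaving out one library at a time gave 3745 to 4611 changed genes, 2012 to 2530 higher and 1733 to 2081 lower, and 1033 to 1377 at least 2-fold, 297 to 341 higher and 734 to 1040 lower. At least 2-fold higher genes were 508 under quantile normalization, against 334, and at least 2-fold lower genes were 561 with a minimum mean of 50, which tests fewer genes, against 847. Introns with higher retention under ecd plus Xrp1 RNAi numbered 8 at an authors' adjusted p of 0.01, against 14, and lower ones 18, against 23. With a replicate block, 3924 genes changed, 2198 higher and 1726 lower, and puc and Prp8 missed the threshold (adjusted p = 0.0820 and 0.0533). The replicate block used the numbers of the sample titles. Libraries of the RNAi groups with the same title number had deviations correlated at -0.17, -0.35, -0.20 and -0.33, so the title numbers do not pair them. The submitters' column names number the libraries otherwise. By these names ecd RNAi replicate 1 shares a number with ecd plus Xrp1 RNAi replicate 3 (0.24), and replicate 3 with replicate 4 (-0.16). A block by these numbers was not tested. Of the values of single genes named here under the alternatives, 2086 kept their direction and side of the threshold, 19 kept only their direction and 1 reversed. That one is ecd, with a log2 change of -0.067 (adjusted p = 0.532) without ecd RNAi replicates 3 and 4, in a range of adjusted p from 0.0802 to 0.960, and the cause was not tested. Of the counts in gene lists, 1216 stayed within 1.5 times and 114 did not. Sums of marker lists kept their direction without any one library, where the smallest p that 7 libraries allow is 0.0571. Depth limits genes near 0, whose fitted changes depend on the pseudocount.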

Other observations

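Gene families outside the lists used above, chosen after their values were seen, also differed between the RNAi groups. Of 45 cytochrome P450 genes tested, which oxidise toxins and hormones, 16 fell and 2 rose, where 19.8% and 24.0% of all genes tested fell and rose. Cyp6d2 was at 75.1, 82.8, 60.4 and 55.2 normalized counts with ecd plus Xrp1 RNAi, at 5889, 5352, 4499 and 4546 with ecd RNAi, with 62.7, 56.9, 91.8 and 46.3 in controls (log2 fold change -6.20 ± 0.14, adjusted p = 3.35e-09), and Cyp6a17 fell by 3.15 ± 0.15 (adjusted p = 3.24e-07). Of 16 UDP-glycosyltransferase genes, 6 fell and 2 rose. The COPI coat, which moves vesicles between Golgi and ER, rose in all 7 genes, led by epsilonCOP with 0.78 ± 0.09 (adjusted p = 9.16e-05). Mitochondrial ribosomal protein genes rose in 48 of 73 cases and fell in none, for instance mRpL20 with 0.72 ± 0.13 (adjusted p = 0.00172), whereas none of the cytosolic ribosomal protein genes rose.

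Noncoding RNAs differed by kind. Of 69 small nucleolar RNAs, 32 fell and none rose, and many lie within introns of other genes. Of 256 long noncoding RNAs, 60 fell and 23 rose, and of 230 antisense RNAs 33 fell and 12 rose, against 19.8% and 24.0% of all genes tested. The transcript of the let-7 complex, lncRNA:let7C, the host of microRNAs induced at metamorphosis, was at 1812, 1449.9, 1082 and 2060.3 normalized counts with ecd plus Xrp1 RNAi, at 161, 126, 32.2 and 235 with ecd RNAi, with 1849.9, 2215, 2362 and 1952 in controls (log2 fold change 3.79 ± 0.51, adjusted p = 2.77e-04). Of 79 core histone genes, 60 rose and 9 fell, and of 22 linker histone genes 19 rose and 2 fell, but these are near-identical copies whose values are not independent.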
